A study of Nothobranchius furzeri with 10 samples.

Results

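In the livers of turquoise killifish that had swum in a swim tunnel, 140 genes stood at least at 2 times the mean level of unexercised livers, with every exercised liver above every control liver. These genes were chosen by their measured levels in these same 10 livers: a mean over the 10 libraries from 1 to under 1000 CPM (reads of a gene relative to all counted reads of its library, scaled with TMM factors, which correct library totals for a few genes taking many reads), a lowest exercised value above the highest control value, and a ratio of the group means of 2 or more. They were 140 of the 15621 genes with enough counts to be tested, out of 26739 genes in the table, and 0.896% of the tested genes. The difference between the groups is therefore what chose them and is given as a description. All 140 passed the filter on low counts, because the choice was made after that filter.

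The 10 livers came from male Nothobranchius furzeri, a short-lived annual fish, all 10 weeks old and of the strain labelled line 4010; Tg(mylz2:egfp,tfam). Of these, 5 carried the perturbation label swim-tunnel and are called exercised, and 5 carried the label none and are called control. Both groups carry the transgene, and no liver without it was analysed here. In zebrafish the mylz2 promoter drives expression in fast skeletal muscle, and egfp encodes a green fluorescent protein. The gene tfam encodes a factor that packages mitochondrial DNA and takes part in starting its transcription. The labels give neither the length, speed and timing of the swimming, nor feeding, nor what the control fish did in its place. Nothing in them states that fish within a group came from separate tanks, so the spread between livers may include shared housing.

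The liver supplies swimming muscle with glucose from its glycogen and from new synthesis, takes up and releases lipids, and makes most proteins of the blood plasma. Exercise draws on these stores, and in vertebrates it also changes hormones to which liver genes respond. Which of these functions the 140 genes serve cannot be read from the files, which name genes by identifiers alone: 0 of the 26739 identifiers were found among the 38438 genes of the species' reference table, so no role is given to any gene and markers of liver or of other cell types could not be checked. Since whole livers were sequenced, a higher level can come from more RNA per cell or from more cells of one type, and these cannot be told apart.

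Most of the 140 genes lay near the lower bound of the choice, and a few lay far above it. The median ratio of exercised to control means was 2.47, with quartiles of 2.24 and 2.98 and a highest value of 21.9. A ratio of 3 or more was found in 35 genes, of 5 or more in 13 and of 8 or more in 5. On the log2 scale the median ratio was 1.31, where the 13411 tested genes of the same range of level had a median of 0.01 and quartiles of -0.29 and 0.27. The values just inside the bound were 2.002, 2.008 and 2.011, and those just outside, among genes with separate groups, were 1.994, 1.984 and 1.978, so the bound cuts through a continuous series. A further 191 genes of this range had separate groups and a ratio from 1.5 to under 2. The requirement of separation removed more genes than it kept: 389 genes of this range had a ratio of 2 or more, and in 249 of them the groups overlapped. Outside the range of level, 13 genes under 1 CPM and 3 at 1000 CPM or more met the other conditions.

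**Figure D1:**
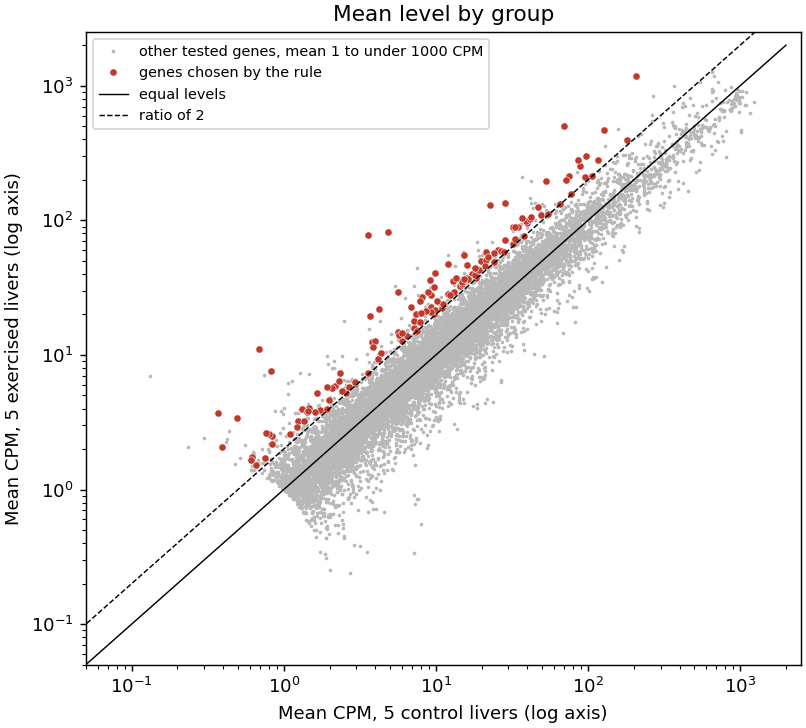
Mean CPM of each gene in 5 control livers (horizontal log axis) and 5 exercised livers (vertical log axis), with the 140 chosen genes in red and the other tested genes of the same range of level in grey. The solid line marks equal levels and the dashed line a ratio of 2; most red points lie close above the dashed line, and a few lie far above it.

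The chosen genes were spread over the whole range of abundance. Between 1 and 10 CPM there were 45 of them, or 0.653% of the 6891 tested genes of that class, with a median ratio of 2.64. Between 10 and 100 CPM there were 81, or 1.402% of 5778, with a median ratio of 2.43. Between 100 and 1000 CPM there were 14, or 1.89% of 742, with a median ratio of 2.84. Their median mean level was 18.2 CPM, against 9.51 CPM over all tested genes of the range. Per kilobase of gene, the scale on which levels of different genes can be compared, the median was 6.22 CPM per kb for the chosen genes and 3.66 for all genes of the range. These levels, and the classes above, are means over all 10 livers. They include the exercised values, which the choice required to be high. The higher level of the chosen genes is therefore partly set by the choice, and levels in control livers alone were not compared. None of the 140 was at 0 counts in any control library, and 5 had under 10 counts in at least 1 control library. The lowest control count was 1 and the lowest exercised count was 25, so all 140 were detected in every liver.

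The widest distance between the groups was found in Nfu_g_1_022595. Its level in exercised livers was 17.5, 8.11, 4.57, 17.0 and 8.09 CPM in replicates 1 to 5, and in control livers it was 0.115, 0.341, 0.622, 1.75 and 0.585 CPM. The lowest exercised liver thus stood at 2.62 times the highest control liver, the largest such gap among the 140, although both groups varied widely within themselves. The means were 11.1 ± 5.84 and 0.682 ± 0.630 CPM (SD, n = 5 each), a ratio of 16.2. The control values rest on 4 to 37 counts per library, and the lowest of them, at 4 counts, carries a counting error of 50%. The control SD was nearly as large as the control mean, so the ratio is imprecise.

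Nfu_g_1_005922 had the highest mean level of the 140, at 691.0 CPM, or 158.6 CPM per kb. It stood at 579.9, 881.0, 1429.5, 1377 and 1615 CPM in exercised replicates 1 to 5 and at 299.8, 80.9, 373, 212 and 62.7 CPM in control replicates 1 to 5. The groups did not overlap, and exercised replicate 1 was the lowest of its group while control replicate 3 was the highest of the other. The means were 1176 ± 430 and 206 ± 135 CPM (SD, n = 5 each), a ratio of 5.72. Its lowest count was 1930, so counting error is small beside the spread between livers.

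The gene with the second highest level, at 297.4 CPM, had an exercised group in 2 tiers: 379, 362 and 376 CPM in replicates 1 to 3, and 603 and 614 CPM in replicates 4 and 5. Its control livers stood at 51.2, 59.5, 142, 215 and 171 CPM, and the ratio was 3.65. The highest level per length belonged to a short gene of 333 bases, at 299.0 CPM per kb. That gene was among the least changed of the set, with a ratio of 2.03, exercised values from 107 to 157 CPM and control values from 49.7 to 77.0 CPM.

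In both genes with the largest ratios, 1 exercised liver lay close to the control livers. The gene with the largest ratio, 21.9, stood at 58.5, 94.1, 131, 96.1 and 9.46 CPM in exercised replicates 1 to 5. Its control values were 2.55, 2.05, 0.978, 5.81 and 6.43 CPM, so exercised replicate 5 lay only 1.47 times above the highest control liver while the other 4 exercised livers lay far above it. It is 351 bases long. The gene with the second largest ratio, 16.7, stood at 90.9, 137, 11.98, 118 and 49.0 CPM in exercised livers and at 2.84, 3.55, 2.93, 7.42 and 7.60 CPM in control livers. Here replicate 3 was the low exercised liver, at 1.58 times the highest control liver.

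At the other end stood a weakly expressed gene that was almost equal in all exercised livers, at 4.01, 3.98, 3.99, 4.15 and 4.18 CPM. Its control livers stood at 1.78, 0.819, 1.87, 1.70 and 1.17 CPM, and the ratio was 2.77. The coefficient of variation among exercised livers, 2.29%, was the lowest of the 140 and lay under the counting error of 9.85% at its lowest exercised count of 103, so closeness of this degree is not a measure of how alike the livers are. The narrowest gap belonged to a gene at 2.67, 2.79, 2.29, 3.58 and 3.30 CPM in exercised livers and 0.975, 0.922, 1.16, 2.27 and 0.747 CPM in control livers. Only control replicate 4 came near the exercised livers, and the lowest exercised liver stood at 1.01 times its value.

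**Figure D2:**
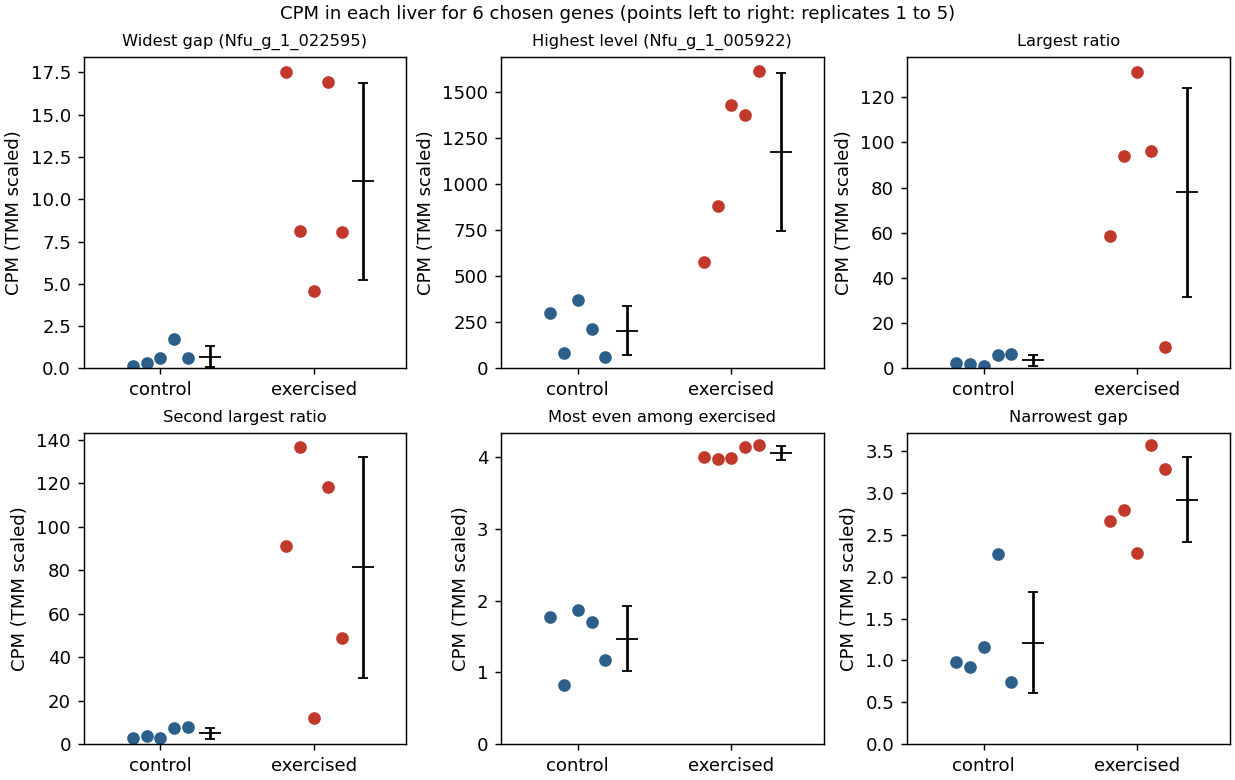
CPM (vertical axes, linear from 0) of 6 of the 140 genes in 5 control livers (blue) and 5 exercised livers (red), with points in the order of replicates 1 to 5 and the mean ± SD beside them. The genes with the largest and second largest ratio each have 1 exercised liver close to the control livers, at 9.46 and 11.98 CPM.

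Over the 140 genes the gap between the groups was narrow. The lowest exercised liver stood at a median of 1.26 times the highest control liver, with quartiles of 1.14 and 1.48. The gap reached 1.5 times in 34 genes and 2 times in 5, and it was under 1.1 times in 28 genes. The spread between livers was about the same in both groups: the median SD of log2 CPM was 0.39 among exercised and 0.38 among control livers, and 73 of the 140 genes varied more among exercised livers. For all tested genes of the range the medians were 0.33 and 0.35, with 47.2% varying more among exercised livers.

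The 140 genes together took 0.982 ± 0.218% of all counts in the exercised group and 0.285 ± 0.0423% in the control group (SD, n = 5 each). Each liver was also read by the median, over the 140 genes, of its log2 level less the control mean. This median was 1.48, 1.39, 1.08, 1.54 and 1.14 in exercised replicates 1 to 5 and -0.06, -0.19, 0.07, 0.27 and -0.06 in control replicates 1 to 5. Exercised replicates 3 and 5 were thus nearest to the control livers, and control replicate 4 was nearest to the exercised livers. The medians over all genes of the range lay between -0.03 and 0.05 in the 10 livers.

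These 3 livers often set the edges of the separation. Exercised replicate 3 was the lowest exercised liver for 58 genes and replicate 5 for 52, together 110 of the 140, against 17, 12 and 1 for replicates 1, 2 and 4. Control replicate 4 was the highest control liver for 63 genes, and the other control livers were so for 7 to 27 genes. How often each liver was lowest or highest over all tested genes was not counted, so these counts are descriptions. These 3 livers also had the lowest TMM factors of their groups, 0.896 and 0.972 for the exercised livers, where the other 3 had 1.13 to 1.21, and 0.718 for the control liver, where the other 4 had 0.900 to 1.12. With library totals in place of TMM factors, the medians of the 140 genes were 1.84, 1.65, 1.01, 1.84 and 1.19 in exercised replicates 1 to 5. Exercised replicates 3 and 5 were again the lowest. In control replicates 1 to 5 the medians were 0.03, -0.25, 0.18, -0.11 and 0.19, so control replicate 4 was not the highest there. Library totals shift all genes of a liver together, and the median over all genes of the range was -0.35 in control replicate 4. Taking that median off each liver removes the scaling, so nearly the same values come from either scaling and the step is no check of it. On library totals, less that median, control replicate 4 stood at 0.24 and the other 4 at -0.16 to 0.05. Exercised replicates 3 and 5 stood at 1.03 and 1.14 and the other 3 at 1.38 to 1.54. A further 109 genes met the mirrored conditions, a ratio of 0.5 or less with every exercised liver below every control liver. With TMM factors their medians were -1.24 and -1.18 in exercised replicates 3 and 5 and -1.67 to -1.37 in the other exercised livers. On that scaling the same pair of exercised livers was nearest to control in that direction as well. With library totals the medians were -1.02, -1.23, -1.30, -1.37 and -1.14 in exercised replicates 1 to 5, so replicates 1 and 5 were nearest to control there. Less the median of all genes, which removes the scaling, the values were -1.28 and -1.18 in exercised replicates 3 and 5 and -1.67 to -1.39 in the other 3.

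**Figure D3:**
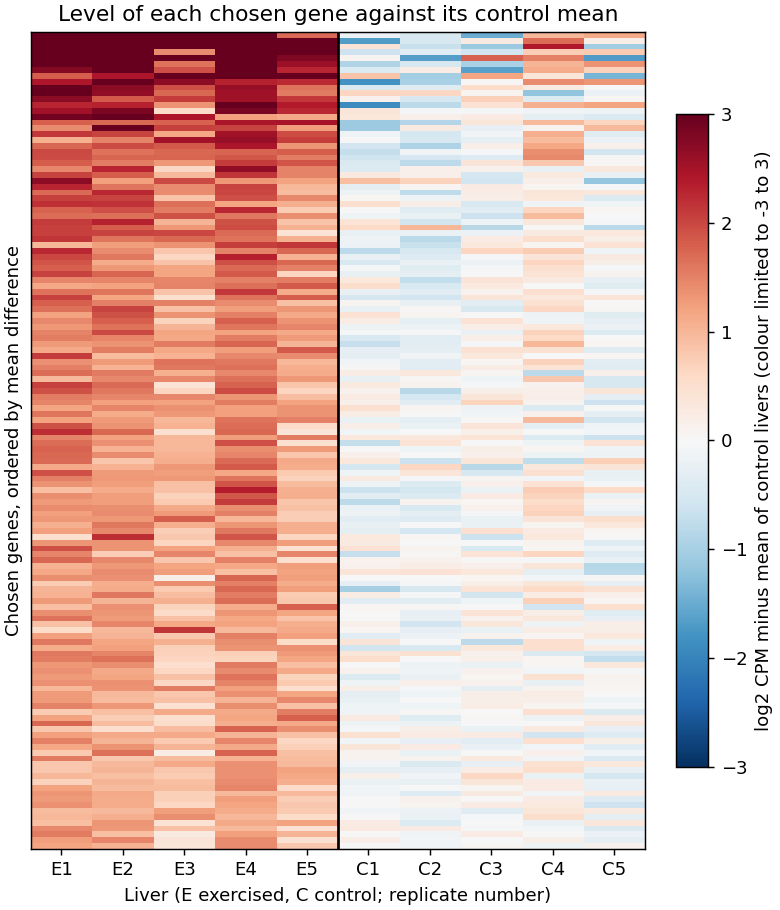
Log2 CPM less the mean of the control livers for the 140 genes (rows, ordered by their mean difference) in 5 exercised (E) and 5 control (C) livers (columns), with colour limited to -3 to 3. All exercised columns are red, paler in E3 and E5 where the medians are 1.08 and 1.14, and the control columns are pale, with C4 the reddest of them at a median of 0.27.

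Each liver was also left out in turn, genes were chosen by the same conditions in the other 9, and the liver left out was then read. Its own values were not used in the conditions on level, separation and ratio, while those of the livers it was set against were. The filter on low counts came before and had used all 10 libraries. The scaling factors of all 10 libraries were kept, which use no group. Between 127 and 264 genes were chosen in this way. A left-out value was counted by its side of the geometric midpoint between the group means. Exercised replicate 4 lay on the exercised side for 96.9% of the 127 genes chosen without it, where it did so for 45.7% of all genes of the range. For exercised replicates 1 and 2 the shares were 87.5% and 90.6%, where all genes of the range gave 46.3% and 46.2%. Control replicates 1, 2, 3 and 5 lay on the control side for 90.8%, 95%, 83.9% and 86.5% of the genes. All genes of the range gave 56.6%, 59.3%, 53.4% and 57.4% in these control livers.

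The shares were lower in the 3 livers named above. Leaving out a liver that often sets the edge admits genes in which only that liver broke the separation. The lower shares therefore restate that pattern in part and are no separate result. They were 55.8% of 206 genes in exercised replicate 3, 58.5% of 217 in exercised replicate 5 and 49.2% of 264 in control replicate 4, where all genes of the range gave 49.0%, 45.5% and 52.2%. Over all 10 livers the share was 75.7% of 1743 readings, where all genes of the range gave a mean of 51.2%. In control replicate 4, genes chosen without it therefore lay on the control side of the midpoint no more often than genes in general. The share there was 51.4% with RLE factors and 50% with upper-quartile factors, where all genes gave 54.7% and 53.6%. With library totals it was 77.0%, where all genes gave 87.8%. With TMM factors, control replicate 4 lay below every exercised liver for 57.6% of the genes chosen without it, against 21.3% of all genes. Exercised replicates 3 and 5 lay above every control liver for 73.8% and 68.7%, against 22.3% and 20.5%. The choice itself placed these bounds clear of the other livers of the group, which does not hold for genes in general.

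The size of the difference, read in the same chosen genes, was smaller in these livers too. In genes chosen without it, exercised replicate 3 stood at a median of 0.79 above the control mean on the log2 scale, where the 4 livers that chose the genes stood at 1.32. For exercised replicate 5 the values were 0.81 and 1.30, and for exercised replicate 4 they were 1.53 and 1.32. Control replicate 4 stood at a median of 0.66 below the exercised mean, where the 4 control livers that chose the genes stood at 1.35. Over all genes of the range, control replicate 4 stood at a median of 0.05 below the exercised mean. Exercised replicates 3, 4 and 5 stood at -0.01, -0.05 and -0.05 from the control mean. Genes read in 1 liver share that liver's library and scaling, so these shares and medians are descriptions over genes and carry no test.

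**Figure D4:**
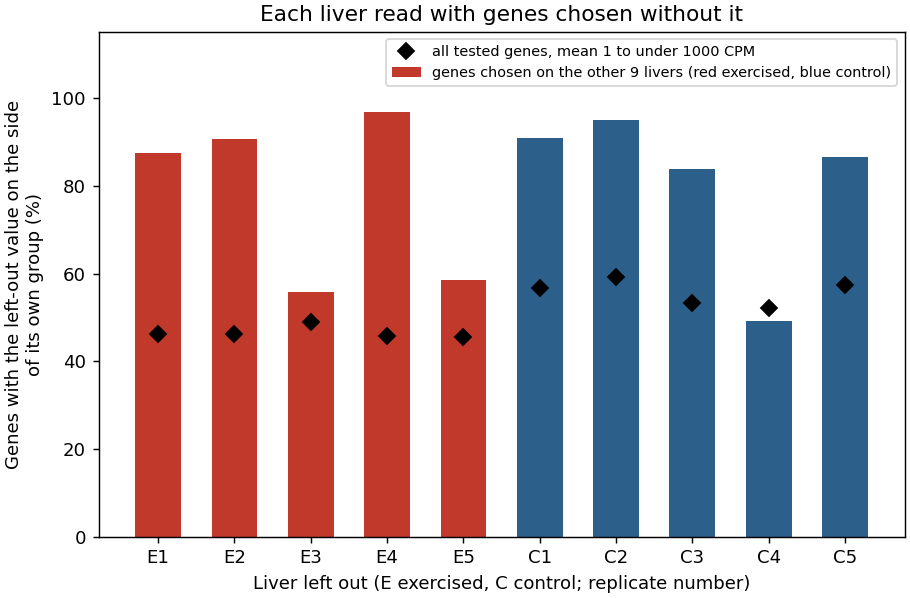
Percent of genes (vertical axis) whose value in the liver left out lay on the side of its own group, read from the geometric midpoint between the group means, for genes chosen on the other 9 livers (bars, red exercised and blue control) and for all tested genes of the same range of level (diamonds). The bars run from 49.2% for C4 to 96.9% for E4, and the diamonds from 45.5% to 59.3%.

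The 140 genes also tended to vary together within a group. With the group means removed from log2 CPM, the correlation (Pearson's r) between 2 of the genes over the 10 livers had a median of 0.24 over 9730 pairs, with quartiles of -0.05 and 0.49. Over all pairs of the 13411 genes of the range the median was -0.001, with quartiles of -0.30 and 0.30. An r above 0.5 was found in 23.8% of the pairs of chosen genes and in 12.1% of all pairs. The 109 genes of the mirrored conditions had a median r of 0.13 over 5886 pairs, with 18.4% above 0.5, so a positive median was not limited to the 140 genes. All pairs share the same libraries, depth and scaling, and n is 10 livers throughout, so these values are descriptions.

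The covariation followed the order of livers seen above. Of the 140 genes, 130 correlated positively with the mean of the other 139, with a median r of 0.52 over all 140, and 34 did so at 0.7 or more. The same was not computed for the mirrored genes or for other sets, so nothing particular to the 140 genes is read from these counts. With TMM factors, in these 130 genes the mean deviation from the group mean was -0.30 and -0.25 on the log2 scale in exercised replicates 3 and 5. In control replicate 4 it was 0.36. The 130 genes were picked by these same deviations, so the means describe the pattern and are no separate support for it. The gene closest to the rest, with an r of 0.96, stood at 111, 109, 65.6, 156 and 77.6 CPM in exercised livers and 30.7, 28.6, 38.7, 50.8 and 34.8 CPM in control livers. The gene most opposed to the rest, with an r of -0.54, stood at 19.4, 23.4, 21.8, 19.9 and 21.6 CPM in exercised livers and 11.7, 8.88, 7.55, 6.38 and 8.54 CPM in control livers, with control replicate 4 its lowest control liver. Nfu_g_1_005922, the most abundant, followed neither pattern, with an r of 0.04, while Nfu_g_1_022595 followed the majority with an r of 0.76. Between a chosen gene and one of the 109 mirrored genes the median r was -0.17.

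**Figure D5:**
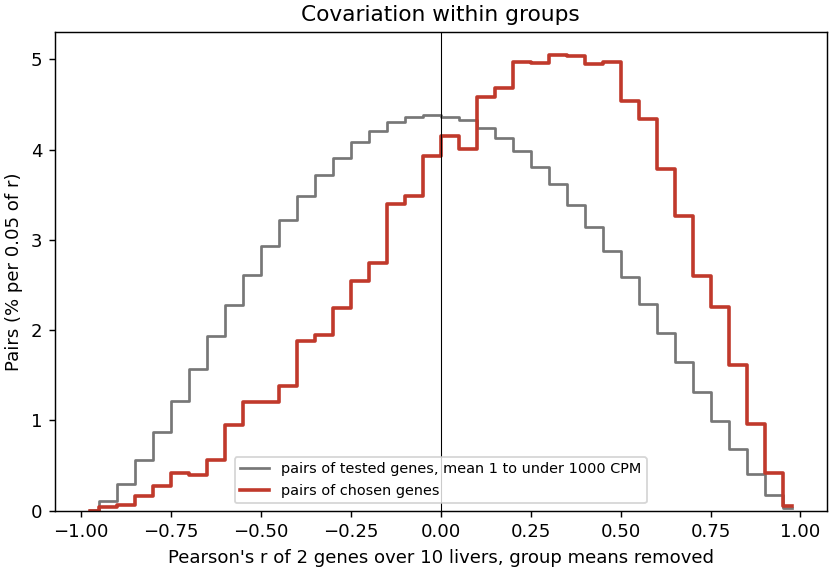
Distribution of Pearson's r between 2 genes over 10 livers after removal of the group means, in percent of pairs per 0.05 of r, for the 9730 pairs of chosen genes (red) and all pairs of tested genes of the same range of level (grey). The red curve lies to the right, with a median of 0.24 against -0.001.

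Gene length, which was not a condition of the choice, was near that of other genes. The conditions used counts and CPM not divided by length, so length could still enter the choice indirectly. The median length was 3371 bases for the 140 genes, 2947 for all tested genes of the range and 3386 for the 109 mirrored genes. The 140 genes ran from 312 to 15244 bases. Both ends of that range had ratios near the bound: the shortest gene had a ratio of 2.07, with a lowest exercised liver at 1.01 times the highest control liver, and the longest a ratio of 2.27.

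In the fit over all tested genes, edgeR's quasi-likelihood test called 128 of the 140 genes higher in exercised livers at an adjusted p under 0.05, where it called 2.04% of all tested genes higher. Complete separation in this direction was found in 3.32% of all tested genes, and in all 140 by choice. The choice used this same contrast, so nothing is read from these counts. The 12 genes not called had adjusted p up to 0.087, and 10 of them averaged under 10 CPM. The calls, over all genes as over the 140, depended on which liver was left out. Of the 140, 64 were called without exercised replicate 1, 81 without replicate 2 and 45 without replicate 4. Of all tested genes, 0.595%, 0.773% and 0.372% were called higher in those fits. Without control replicates 1 and 2 the counts were 54 and 39, with 0.465% and 0.323% of all tested genes. Without exercised replicates 3 and 5 they were 125 and 122, with 2.41% and 2.48%. Without control replicates 3, 4 and 5 they were 92, 127 and 96, with 1.08%, 3.10% and 1.03%. With 1 liver left out at a time, the median log2 ratio of the 140 genes lay between 1.28 and 1.39, a range that their choice on all 10 livers fixes. The conditions themselves admitted 217 genes without exercised replicate 5 and 253 without control replicate 4.

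The libraries held between 26850938 and 40089247 counts, with means of 31773232 ± 5195823 in exercised and 31593206 ± 2997117 in control livers (SD, n = 5 each).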

How the data were processed

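TruSeq libraries of total RNA from 10 livers were sequenced, per the labels' protocols. Reads were handled with featureCounts 1.4.6-p4, STAR 2.4.1d and bcl2fastq 1.8.4, per the submitters' processing notes. The sources used here give no build, annotation or strand setting, so overlapping genes could share reads. The deposited counts are whole reads per gene, not normalized. The deposited RPKM values used another library's total in most cells (12.9% matched the column's own total, within 0.0011 RPKM or 0.05%), so they served only to recover gene lengths. Replicates were numbered in accession order.

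Genes passed edgeR's filterByExpr (minimum count 10, minimum total 15). CPM used TMM factors, and log2 CPM a prior count of 2. The test was edgeR's quasi-likelihood fit on all 10 libraries with group alone, Benjamini-Hochberg adjusted, two-sided (R 4.3.3, edgeR 4.0.16), checked on simulated data. Alternatives were limma-voom (limma 3.58.1), DESeq2 1.42.0, robust dispersions, RLE, upper-quartile and no factors, a filter of 1 CPM in 5 libraries or none, and each library left out. Levels per liver on library totals, with and without the median of all genes taken off, and leave-one-out shares per liver on each scaling, were added after seeing the data.

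The 140 genes and the planned lists were chosen with earlier results of these data known. Planned gene lists, which needed symbols, were not used. Identifiers are printed for the widest gap between groups and for the highest mean level; other genes are described by rank. The pairs of neighbouring rows were looked at after the data were seen.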

Additional observations from a re-analysis of the deposited data

Results flagged for a closer look

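A liver was marked within its group of 5 where it lay farther from the next value than 0.71 of the whole range. Chance marks about 1 in 20 groups, and 42 groups of values were examined. In the gene with the highest coefficient of variation among exercised livers, 62.8%, exercised replicate 2 stood at 84.7 CPM and the next exercised liver at 37.1 CPM, where control livers ran from 4.13 to 17.5 CPM. In the gene with the narrowest gap, control replicate 4 stood at 2.27 CPM and the next control liver at 1.16 CPM. Over all 140 genes such values were found for 7 genes among exercised livers, or 5%, and for 14 among control livers, or 10%. Control replicate 4 was the liver concerned in 10 of those 14. The same count was not made over all tested genes, so nothing particular to the 140 genes is read from these shares.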

How the results depend on the processing

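The number of genes meeting the conditions, 140, was 139 with RLE factors, 122 with upper-quartile factors, 143 with no filter and 131 with the filter of 1 CPM. With library totals it was 227, of which 117 were among the 140; that scaling moves the median log2 ratio of all tested genes from -0.02 to 0.15 and that of the 140 genes from 1.31 to 1.52, so their distance from all genes was 1.33 and 1.37. It also moved the median correlation between the 140 genes to 0.42, and that over all pairs to 0.26. In none of the 18 alternatives did 1 of the 140 fall to a ratio of 1 or less, which their choice largely fixes. The alternatives DESeq2, limma-voom and robust dispersions changed only the test and left these ratios as they were. DESeq2 called 905 genes higher, where edgeR called 318. With 1 library left out, 128 to 253 genes met the conditions, 51 to 493 were called higher over all genes, and 39 to 127 of the 140 were called. The cause was not tested. The log2 change of Nfu_g_1_005922 lost its call without exercised replicate 4 (edgeR adjusted p = 0.077), control replicate 1 (0.0534) or control replicate 2 (0.0741), and its adjusted p lay between 0.0181 and 0.0486 elsewhere in edgeR and limma-voom. That of Nfu_g_1_022595 kept its call in every alternative. These genes were picked on this same contrast, and the alternatives reuse the same livers, so nothing is read from these calls. No paired analysis was possible because the labels give no pairing of livers between the groups. The library numbers in the labels run from 2 to 6 in exercised and from 8 to 12 in control livers. Anything that follows their order cannot be told apart from the group. Low counts limit the ratios of the weakest genes.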

Other observations

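Some chosen genes stood next to each other in the rows of the deposited table. In 10 cases both genes of a pair of neighbouring rows were among the 140, so 20 of the 140, or 14.3%, had such a neighbour. Of the 96 chosen genes whose next row was a tested gene, 10.4% had a chosen gene there, where 0.896% of all tested genes were chosen. The 109 mirrored genes had 0 such pairs. The rows do not run strictly in the order of the identifier numbers, and 0 pairs of chosen genes had consecutive numbers. In most of the 10 cases, though not in all, the numbers of the paired genes were close to each other. What orders the rows is not stated in the sources used here.

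In 7 of the 10 pairs the 2 genes varied together within groups at an r of 0.5 or more, and the median r was 0.82, with a range from 0.03 to 0.88 over the 10 pairs (n = 10 livers each). The pair with the highest r held the gene with the largest ratio, 21.9, of 351 bases, and a gene of 2726 bases with a ratio of 3.32. In the next pair, a gene of 7626 bases at 69.2 CPM and one of 2322 bases at 10.2 CPM had almost the same ratio, 2.54 and 2.60. Over all 7823 pairs of neighbouring rows in the same range of level the median r was 0.14, against 0.01 for rows 10 apart and -0.002 for 7780 pairs with consecutive identifier numbers. Neighbouring rows that were not themselves chosen differed less from other genes: over 148 of them the median log2 ratio was 0.09, where all genes of the range had 0.01, and 62.2% had a higher mean in exercised livers, against 50.7%. Whether the neighbours overlap and share reads was not tested.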
